A study of Homo sapiens with 12 samples.

Results

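The nuclear pore and nuclear transport genes measured here were 53 listed genes, made up of 30 parts of the pore itself, 22 soluble transport receptors and RAN. Members were the listed genes with a probe detected at p under 0.01 on at least 3 of 12 Illumina HumanHT-12 v4 bead arrays, and 51 of the 53 passed, among 10464 genes measured in all. They comprised 29 pore parts, 21 receptors and RAN. The missing genes were POM121, a membrane anchor of the pore detected on 0 arrays (unscaled signals 92.7 to 109.4), and the importin alpha KPNA5, detected on 1 array (92.7 to 108). Of the 51, 44 were detected on all 12 arrays.

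The arrays held RNA of HCT116 cells, an established colon cancer line, in 4 groups of 3. ATF3-knockout (KO) cells were treated with 1.5 µM camptothecin (CPT) for 4 h, wild-type (WT) cells received the same CPT treatment, and KO and WT cells were treated with the solvent DMSO. CPT traps topoisomerase I on DNA and so breaks DNA and blocks RNA polymerases along genes. ATF3 is a stress-induced transcription factor, and all KO arrays came from 1 clone, E11, in which both alleles were targeted in exon 3 by a viral vector. Whether the replicates came from separate cultures is not stated, so the spread behind the tests may be technical. In such bulk RNA, fewer cells of a kind and less RNA per cell cannot be told apart.

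The nuclear pore is a ring-shaped channel through the nuclear envelope. A Y-shaped outer coat and an inner ring hold it in the membrane, flexible proteins rich in phenylalanine-glycine repeats fill the channel, and fibres reach into the cytoplasm and, as a basket, into the nucleus. Soluble receptors, the importins and exportins, carry cargo through the channel, and the small GTPase RAN gives the traffic its direction, since importins release and exportins bind cargo when RAN carries GTP.

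As a check of the labels, the ATF3 probe had normalized intensities of 210.0, 216 and 278 in KO cells under CPT, against 949, 1034 and 1845 in WT cells under CPT, and 43.3, 33.5 and 43.4 in KO cells under DMSO, against 67.6, 60.2 and 279.5 in WT cells under DMSO. Under CPT the KO cells differed from the WT cells by -2.39 on the log2 scale (adjusted p = 0.0364). Under DMSO the difference of -1.39 was not called (adjusted p = 0.271), and WT replicate 3 was higher than the other two. With the replicate number as a block, the ATF3 difference under DMSO was called (adjusted p = 0.0387), where 470 of all genes were. With CPT the ATF3 probe was called higher in both genotypes, by 2.55 in KO cells (adjusted p = 0.00163) and 3.54 in WT cells (adjusted p = 0.000214). The probe may lie outside the disrupted part of the gene, so its remaining signal does not measure ATF3 protein. Of the colon epithelial markers, EPCAM, KRT8, KRT18, KRT19, CDH1 and CDX2 were detected on all 12 arrays, while LGALS4 and VIL1 were detected on 0. Of 9 markers of other cell types, PTPRC, PECAM1, CDH5, GFAP and DES were detected on 0 arrays, COL1A1 and COL1A2 on 1 each, CD14 on 6 and ALB on 11. CD14 and ALB, at unscaled signals no higher than 177.1 and 148, were the only markers of that list that passed the detection filter. Both were called higher with CPT. The keratin KRT19 was called lower with CPT, at -0.78 in KO cells (adjusted p = 0.00318) and -0.75 in WT cells (adjusted p = 0.00410). The part of these markers in the results below was not tested.

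Values below are normalized intensities with an offset of 16, and changes are differences of their log2 values, so the change of a dim gene is understated. A gene was called where limma's moderated test, adjusted by the Benjamini-Hochberg method over the 10464 genes, gave a p under 0.05.

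With quantile-normalized values, many of these genes were called lower with CPT in both genotypes. None was called higher in the fit of all 12 arrays without the replicate number as a block. With the block, on the same values, NUP210 was called higher in both genotypes (adjusted p = 0.0191 in KO cells and 0.0351 in WT cells). AAAS was called higher with it in WT cells (0.0147). Fitting only the 6 arrays compared, without the block, also called NUP210 higher in KO cells. In the fit of all 12 arrays without the block, 30 of 51 members were called lower in KO cells, against 17.9% of all genes. There 0 were called higher, against 13.8% of all genes. In WT cells 29 were called lower, against 18.5% of all genes, and 0 higher, against 13%. The calls fell on 28 members in both genotypes, on TPR and IPO7 in KO cells alone and on KPNA2 in WT cells alone, and 20 members were called in neither. The difference between the genotypes was not called for TPR, IPO7 or KPNA2. Counting also those not called, 46 members in KO cells and 45 in WT cells had a change below 0. The median change was -0.78 in KO cells and -0.73 in WT cells, where the medians of all genes were 0.03 and 0.03. The calls were made on quantile-normalized values, under which 43.6% of the genes called in KO cells and 41.2% in WT cells were higher. Scaling each array on the median of all probes moved the median change of all genes to -0.19 in KO cells and -0.30 in WT cells, the higher share to 15.1% and 8.37%, and the members' calls to 31 and 37 lower with 0 higher. Scaling on the median of the kept probes moved them to 0.24 and 0.27, to 63.1% and 65.5%, and to 27 lower with 1 higher in KO cells and 26 lower with 2 higher in WT cells. The higher calls under that last scaling were RAN, at 0.48 in KO cells and 0.56 in WT cells, and AAAS, at 0.68 in WT cells. Among all genes, quantile normalization gave 3321 calls in KO cells and 3298 in WT cells. Scaling on all probes gave 2876 and 3323, and scaling on the kept probes 3985 and 4365. AHCTF1, NUP98, IPO8 and RANBP2 passed the detection filter only with the help of DMSO arrays, so their entry favoured a fall. With no detection filter, 27 of 53 members were called lower in KO cells and 27 of 53 in WT cells. All genes had 3057 and 3048 calls there. With detection on all 12 arrays, 25 of 44 members were called lower in KO cells and 24 of 44 in WT cells. All genes then had 2517 and 2496 calls.

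The CPT and DMSO arrays did not overlap for 30 of the 30 called members in KO cells and for 28 of the 29 in WT cells. Called genes are chosen by a test that favours such separation, and its share among all genes was not counted. This count therefore only describes the calls. The 75th percentile of the authors' normalized values was 55.4 on the replicate 1 arrays and 31.5 on the others. Replicate 1 therefore appears to have been normalized apart. With replicates 2 and 3 alone, 25 members were called lower in KO cells and 20 in WT cells. Calls among all genes, in either direction, fell likewise, from 3321 to 2221 in KO cells and from 3298 to 2143 in WT cells. The authors' own normalized values, fitted without the block, gave 17 members called lower in KO cells and 17 in WT cells. Those values gave 1323 calls among all genes in KO cells and 1337 in WT cells. With the replicate number as a block, NUP54 and NUP58 were also called lower in both genotypes, RANBP2, KPNA6 and TNPO1 in KO cells and NDC1 in WT cells. Their adjusted p with the block ran from 0.0129 to 0.0465 for the 5 in KO cells and was 0.00225 for NUP54, 0.00810 for NUP58 and 0.0266 for NDC1 in WT cells. This made 36 calls in KO cells, 35 lower and 1 higher, and 34 in WT cells, 32 lower and 2 higher. Calls among all genes also rose with the block, to 5081 in KO cells and 5160 in WT cells, with 49.7% and 48.5% of them higher.

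Calls were found among the soluble receptors and among the pore parts. Among receptors 14 of 21 were called lower in KO cells and 14 of 21 in WT cells, with median changes of -0.85 and -0.81. Among pore parts 16 of 29 were called lower in KO cells and 15 of 29 in WT cells, with medians of -0.67 and -0.70. In KO cells the 3 replicate pairs gave medians of -1.07, -0.84 and -0.89 for receptors and of -0.67, -0.66 and -0.57 for pore parts. In WT cells they gave -0.89, -0.95 and -0.77 for receptors and -0.73, -0.85 and -0.58 for pore parts. The receptors' median lay lower in each of the 6 pairs, and this order was not tested. RAN was not called in either genotype with quantile-normalized values.

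**Figure D1:**
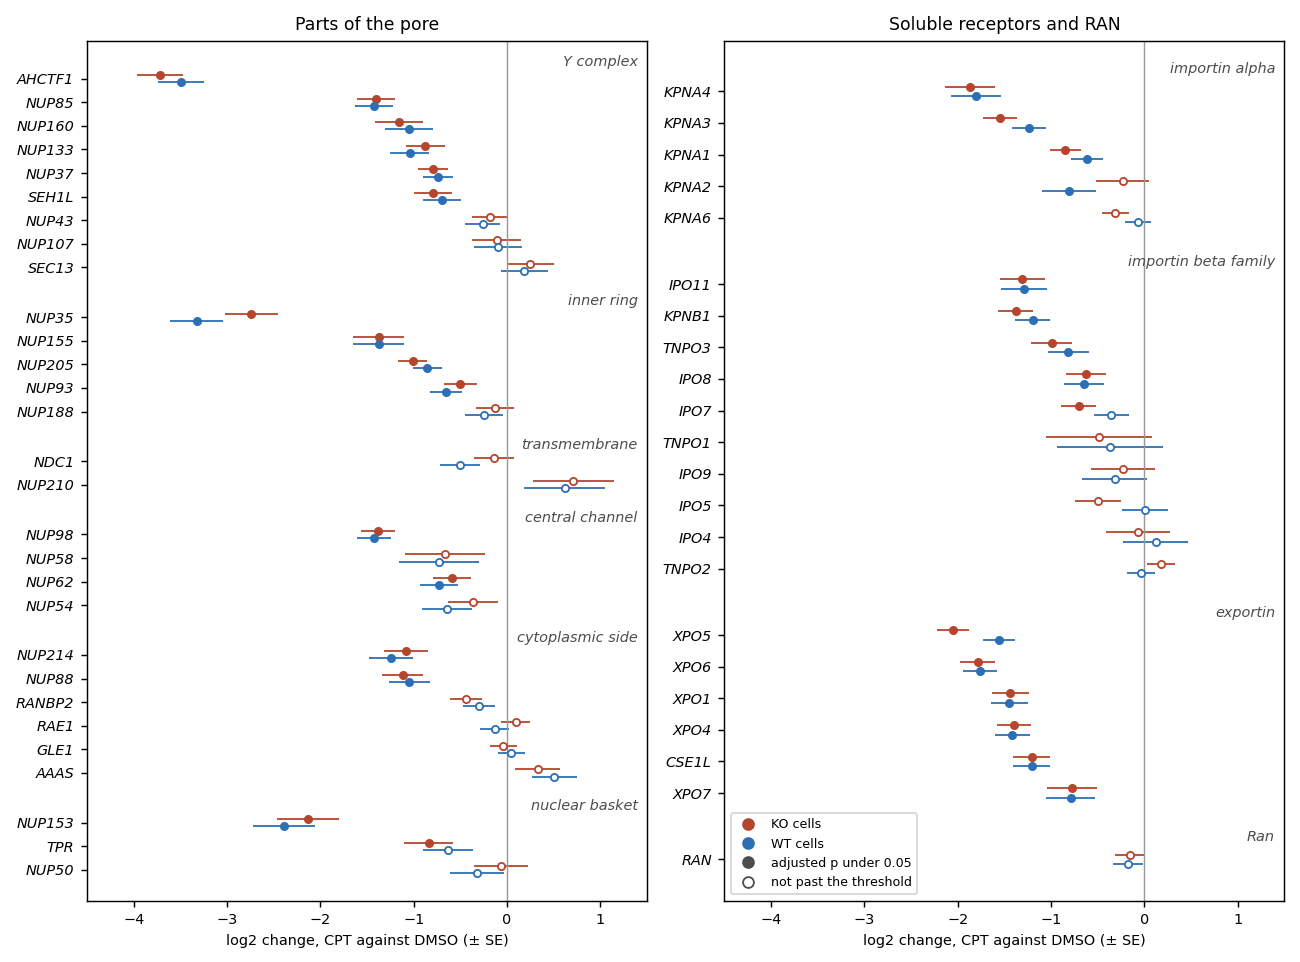
Log2 change with CPT against DMSO (± SE of the fit, n = 3 arrays a group) for the 51 members, in KO cells (red) and WT cells (blue), pore parts on the left and receptors with RAN on the right, grouped by place or role. Filled points passed an adjusted p of 0.05. All 6 exportins among the members were filled and below 0 in both genotypes, and no filled point lies above 0 in this fit, which has no replicate block.

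The Y complex, the outer coat of the pore, had 6 of 9 members called lower in both genotypes, at a median of -0.79 in KO cells and -0.74 in WT cells. Its AHCTF1, which encodes ELYS, the protein that binds chromatin and seeds pore assembly after mitosis, had the largest fall of all members. In KO cells AHCTF1 had intensities of 37.4, 27.3 and 20.2 under CPT, against 346, 372 and 364 under DMSO, a change of -3.72 ± 0.25 (SE, adjusted p = 2.90e-06). In WT cells the intensities were 35.6, 26.7 and 22.8 under CPT, against 294, 406 and 258 under DMSO, a change of -3.49 ± 0.25 (adjusted p = 5.30e-06). The CPT arrays lay far below the DMSO arrays in both genotypes, and only 1 of 3 CPT arrays in each detected the probe, so the CPT values are near background. A second AHCTF1 probe changed less, by -1.52 in KO cells and -1.89 in WT cells.

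NUP85, which holds SEH1L in the coat, had intensities of 373, 278 and 247 under CPT, against 880.5, 752 and 710.1 under DMSO in KO cells, and its change was -1.40 ± 0.20 (adjusted p = 0.000389). In WT cells it had 411, 301 and 363 under CPT, against 1130.0, 799.7 and 959.5 under DMSO, with a change of -1.42 ± 0.20 (adjusted p = 0.000339). It was detected throughout, and the groups were well apart. NUP160, NUP133, NUP37 and SEH1L were called lower by smaller amounts, between -1.16 and -0.79 in KO cells and between -1.05 and -0.70 in WT cells. For SEH1L, 2 other probes changed further, by -1.62 and -1.52 in KO cells and by -1.62 and -1.82 in WT cells. The rest of the coat was not called: NUP43 changed by -0.18 ± 0.19 in KO cells and -0.26 ± 0.19 in WT cells, and SEC13, which also serves in the coat of vesicles leaving the endoplasmic reticulum, by 0.25 ± 0.25 in KO cells and 0.18 ± 0.25 in WT cells. NUP107, a core subunit next to NUP133, had the smallest change of the complex, with 405, 388 and 339.5 under CPT, against 549, 434 and 283 under DMSO in KO cells (-0.11 ± 0.26, adjusted p = 0.777). In WT cells NUP107 had 507, 442 and 346 under CPT, against 563, 494 and 343 under DMSO (-0.10 ± 0.26, adjusted p = 0.802). CPT and DMSO arrays overlapped in both genotypes, while replicates 1 to 3 differed among themselves.

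Of the inner ring, which anchors the channel to the membrane coat, 4 of 5 members were called lower in both genotypes. NUP35, the subunit that touches the membrane, had the second largest fall of all members. Its intensities were 63, 48.8 and 70 under CPT, against 369, 407 and 429 under DMSO in KO cells, a change of -2.74 ± 0.28 (adjusted p = 4.16e-05). In WT cells they were 54.2, 35.9 and 92.2 under CPT, against 521, 508 and 679 under DMSO, a change of -3.32 ± 0.28 (adjusted p = 1.39e-05), with the probe detected on 2 of 3 CPT arrays. Every CPT array was several-fold below every DMSO array, and a second NUP35 probe changed by -2.31 in KO cells and -2.52 in WT cells. NUP155 changed by -1.38 ± 0.28 in KO cells and -1.38 ± 0.28 in WT cells, NUP205 by -1.01 ± 0.15 and -0.86 ± 0.15, and NUP93 by -0.50 ± 0.18 and -0.65 ± 0.18, each called in both genotypes. NUP188, a large scaffold protein related to NUP205, was the exception. It had 111, 125 and 119 under CPT, against 156, 112 and 123 under DMSO in KO cells (-0.13 ± 0.20, adjusted p = 0.672). In WT cells NUP188 had 118, 105 and 97.8 under CPT, against 158, 94.5 and 136 under DMSO (-0.25 ± 0.20, adjusted p = 0.377), and the arrays overlapped in both genotypes.

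The channel proteins gave 2 of 4 calls in both genotypes, NUP98 and NUP62. NUP98, whose transcript also encodes the coat protein NUP96, had intensities of 29.5, 22.4 and 21.9 under CPT, against 63.2, 56 and 72.4 under DMSO in KO cells. It was not detected on any CPT array of KO cells, so its fall there is at least 1.95-fold (measured change -1.38 ± 0.18, adjusted p = 0.000193). In WT cells NUP98 had 31.1, 25.6 and 28.3 under CPT, against 86.8, 65 and 77.8 under DMSO, with 1 of 3 CPT arrays detected and a change of -1.43 ± 0.18 (adjusted p = 0.000173). Its DMSO values were themselves dim, and 2 other probes changed less, by -0.90 and -0.81 in KO cells and by -0.70 and -0.58 in WT cells. NUP62, the best known repeat protein of the channel, changed by -0.60 ± 0.20 in KO cells and -0.73 ± 0.20 in WT cells, but a much dimmer second probe changed by 0.12 and -0.14. Its partners were not called: NUP58 changed by -0.67 ± 0.43 in KO cells and -0.73 ± 0.43 in WT cells. NUP54 had 286, 239.6 and 438 under CPT, against 413, 324 and 481 under DMSO in KO cells (-0.37 ± 0.27, adjusted p = 0.324). In WT cells NUP54 had 325, 255 and 459 under CPT, against 537, 447 and 605 under DMSO (-0.64 ± 0.27, adjusted p = 0.0841). Each replicate of NUP54 was lower under CPT than under DMSO, although replicate 3 was the highest in every group and the groups overlapped.

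On the cytoplasmic side 2 of 6 members were called lower in both genotypes. NUP88 changed by -1.12 ± 0.22 in KO cells and -1.05 ± 0.22 in WT cells, and its partner NUP214, a docking site for export complexes, by -1.08 ± 0.23 and -1.24 ± 0.23. RANBP2, a large fibre protein that binds RAN, had dim values, was detected on 0 of 6 CPT arrays and was not called. It has near-identical relatives in the genome, so its signal is uncertain. GLE1, which activates the helicase that strips export proteins from mRNA, had the smallest change here, with 635, 573 and 556 under CPT, against 649, 572 and 592 under DMSO in KO cells (-0.04 ± 0.15, adjusted p = 0.867). In WT cells GLE1 had 741, 622 and 714 under CPT, against 714, 675 and 622 under DMSO (0.05 ± 0.15, adjusted p = 0.843). The mRNA export factor RAE1 changed by 0.10 ± 0.16 in KO cells and -0.13 ± 0.16 in WT cells and AAAS, the gene of triple A syndrome, by 0.33 ± 0.24 and 0.51 ± 0.24, none of them called.

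In the nuclear basket NUP153, which links the basket to the coat, was called lower in both genotypes. It had 79.2, 35.2 and 62.9 under CPT, against 241, 280.1 and 217 under DMSO in KO cells, a change of -2.13 ± 0.33 (adjusted p = 0.000587). In WT cells it had 58.2, 35.6 and 91.3 under CPT, against 330.1, 304 and 273 under DMSO, a change of -2.39 ± 0.33 (adjusted p = 0.000279), with 2 of 3 CPT arrays detected. The lowest CPT value came from replicate 2 in both genotypes, and no CPT array reached a DMSO array. TPR, the filament of the basket, changed by -0.84 ± 0.26 in KO cells, where it was called, and by -0.63 ± 0.26 in WT cells, where it was not, and NUP50 changed by -0.07 ± 0.29 and -0.33 ± 0.29 without a call. Neither kept membrane protein was called: NDC1 changed by -0.14 ± 0.22 in KO cells and -0.50 ± 0.22 in WT cells, and NUP210 by 0.71 ± 0.43 and 0.62 ± 0.43.

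NUP210 and AAAS were the members with the most positive changes. NUP210 had 199, 165 and 135 under CPT, against 128, 99.5 and 79.9 under DMSO in KO cells and 219, 158 and 79.1 under CPT, against 158, 105 and 46 under DMSO in WT cells, so each CPT array was above the DMSO array of its own replicate while the replicates differed widely. With the replicate number as a block, NUP210 was called higher in KO cells (adjusted p = 0.0191, range over its alternatives 0.0191 to 0.736) and in WT cells (0.0351, range 0.0351 to 0.902). AAAS had 65.7, 41.4 and 56.3 under CPT, against 49.9, 41.1 and 37.7 under DMSO in KO cells and 81.4, 57.7 and 50.8 under CPT, against 56.9, 40.8 and 36.1 under DMSO in WT cells, and with the block it was called higher in WT cells (0.0147, range 0.0125 to 0.844).

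**Figure D2:**
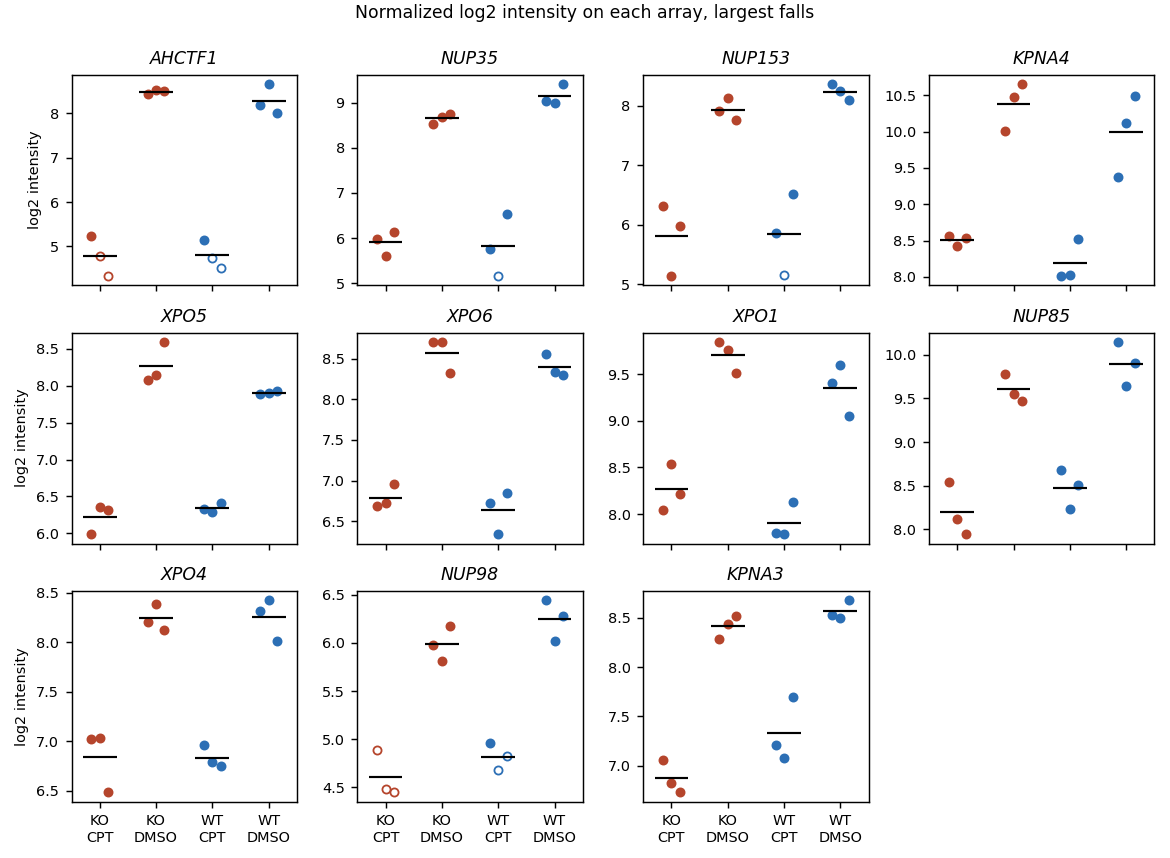
Normalized log2 intensity on each array for the 11 members with the largest falls, in KO cells under CPT and DMSO and in WT cells under CPT and DMSO. Points are arrays in replicate order, open where the probe was not detected at p under 0.01, and bars are means of 3. For each of the 11 genes every CPT array lies below every DMSO array of its genotype. The genes were chosen by their falls on these same arrays, so this separation only describes them.

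The exportins, which carry cargo out of the nucleus with RAN-GTP, had 6 of 6 members called lower in both genotypes, at a median of -1.42 in KO cells and -1.43 in WT cells. The tRNA exportin XPOT, which is not a member, was not called, at -0.54 in KO cells (adjusted p = 0.110) and -0.65 in WT cells (adjusted p = 0.0608), but was with the block (0.0347 and 0.0157). XPO5, the exporter of microRNA precursors, had 63.7, 81.7 and 79.8 under CPT, against 269.6, 282 and 385 under DMSO in KO cells (-2.05 ± 0.17, adjusted p = 1.09e-05). In WT cells XPO5 had 80.4, 78 and 85 under CPT, against 237, 238 and 244 under DMSO (-1.56 ± 0.17, adjusted p = 7.47e-05). Arrays within a group were close, and CPT and DMSO were far apart.

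XPO6, which exports actin, had 103, 105 and 124 under CPT, against 417, 417 and 320.1 under DMSO in KO cells (-1.79 ± 0.18, adjusted p = 3.99e-05). In WT cells XPO6 had 106, 81.1 and 115 under CPT, against 377, 325 and 315 under DMSO (-1.76 ± 0.18, adjusted p = 5.07e-05). All 3 replicates were lower under CPT in each genotype. XPO1, the main exporter of proteins with a leucine-rich signal, had 264, 372 and 297 under CPT, against 917, 863 and 732 under DMSO in KO cells (-1.44 ± 0.20, adjusted p = 0.000255). In WT cells XPO1 had 222, 221 and 281 under CPT, against 678, 774 and 531 under DMSO (-1.45 ± 0.20, adjusted p = 0.000245). No CPT array of XPO1 reached a DMSO array of the same genotype.

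XPO4 had 129.7, 131 and 89.7 under CPT, against 296, 336 and 279.7 under DMSO in KO cells (-1.40 ± 0.19, adjusted p = 0.000222). In WT cells XPO4 had 125, 111 and 108 under CPT, against 320.0, 344 and 258 under DMSO (-1.42 ± 0.19, adjusted p = 0.000215), and its groups were apart in both genotypes. CSE1L, which returns importin alpha to the cytoplasm, changed by -1.21 ± 0.20 in KO cells and -1.21 ± 0.20 in WT cells. XPO7 changed least, with 68.4, 83.4 and 86.1 under CPT, against 127, 128 and 152 under DMSO in KO cells (-0.78 ± 0.26, adjusted p = 0.0402). In WT cells XPO7 had 67.9, 78.3 and 148 under CPT, against 159, 131 and 195 under DMSO (-0.79 ± 0.26, adjusted p = 0.0379). WT replicate 3 under CPT lay above WT replicate 2 under DMSO, which made it the only called member in WT cells with overlapping groups.

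Of the importin alphas, the adaptors that recognise classical import signals, 3 of 5 were called lower in KO cells and 4 of 5 in WT cells. KPNA4 had 379, 343 and 372 under CPT, against 1031, 1428 and 1609 under DMSO in KO cells (-1.87 ± 0.27, adjusted p = 0.000377). In WT cells KPNA4 had 259, 259.9 and 369 under CPT, against 662, 1113 and 1439.8 under DMSO (-1.81 ± 0.27, adjusted p = 0.000449). Its DMSO values were lowest in replicate 1 in both genotypes, yet stayed above every CPT value of the same genotype.

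KPNA3 had 133, 113 and 106 under CPT, against 313, 346 and 367 under DMSO in KO cells (-1.54 ± 0.18, adjusted p = 9.67e-05). In WT cells KPNA3 had 148, 135 and 208 under CPT, against 371, 362 and 409.7 under DMSO (-1.24 ± 0.18, adjusted p = 0.000401). KPNA1 was called in both genotypes at -0.85 ± 0.17 in KO cells and -0.62 ± 0.17 in WT cells. KPNA2 was called in WT cells alone. It had 952, 541 and 592 under CPT, against 1046, 546 and 868 under DMSO in KO cells (-0.23 ± 0.29, adjusted p = 0.578). In WT cells KPNA2 had 839, 521 and 677 under CPT, against 1460.3, 1033 and 1059.7 under DMSO (-0.81 ± 0.29, adjusted p = 0.0484), and a second, far dimmer probe changed by -0.28 there. The call in WT cells was lost when any of 8 single arrays was left out.

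KPNA6 had 149, 157 and 177 under CPT, against 208, 187 and 204 under DMSO in KO cells (-0.31 ± 0.14, adjusted p = 0.115) and 219.8, 235 and 235 under CPT, against 237, 229 and 257 under DMSO in WT cells (-0.07 ± 0.14, adjusted p = 0.757), and was called in neither. The importin beta family, whose members carry cargo themselves or through adaptors, had 5 of 10 calls in KO cells and 4 of 10 in WT cells. KPNB1, the importin beta that partners importin alpha, changed by -1.38 ± 0.19 in KO cells and -1.20 ± 0.19 in WT cells. IPO11 changed by -1.31 ± 0.24 and -1.29 ± 0.24, and TNPO3, which imports splicing factors of the SR family, by -0.99 ± 0.22 and -0.82 ± 0.22. IPO7, an importer of ribosomal proteins, was called in KO cells alone, at -0.70 ± 0.19 in KO cells and -0.36 ± 0.19 in WT cells. IPO8 was detected on 0 of 6 CPT arrays, so its called falls are bounds of at least 1.10-fold in KO cells and 1.08-fold in WT cells (measured changes -0.63 ± 0.21 and -0.65 ± 0.21).

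Other members of the family were not called. IPO4 had 140.4, 128 and 88.7 under CPT, against 143, 124 and 104 under DMSO in KO cells (-0.07 ± 0.35, adjusted p = 0.903) and 224, 126 and 78.8 under CPT, against 156, 132 and 83.4 under DMSO in WT cells (0.12 ± 0.35, adjusted p = 0.82). IPO5 had 149, 128 and 74.3 under CPT, against 170.2, 170.3 and 137 under DMSO in KO cells (-0.50 ± 0.25, adjusted p = 0.146) and 159.9, 144 and 186 under CPT, against 187, 170.5 and 132 under DMSO in WT cells (0.01 ± 0.25, adjusted p = 0.989). CPT and DMSO arrays of both genes overlapped in both genotypes. IPO9 changed by -0.23 ± 0.34 in KO cells and -0.32 ± 0.34 in WT cells, and TNPO2 by 0.18 ± 0.15 and -0.04 ± 0.15. TNPO1, the importer of hnRNP proteins, changed by -0.49 ± 0.57 and -0.37 ± 0.57 on a probe whose replicates differed widely, while another of its probes changed by -1.34 in KO cells and -1.77 in WT cells. RAN, which these receptors depend on, changed by -0.15 ± 0.16 (adjusted p = 0.517) in KO cells and -0.18 ± 0.16 (adjusted p = 0.438) in WT cells, and its sign turned with both median scalings in KO cells and with that over the kept probes in WT cells.

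**Figure D3:**
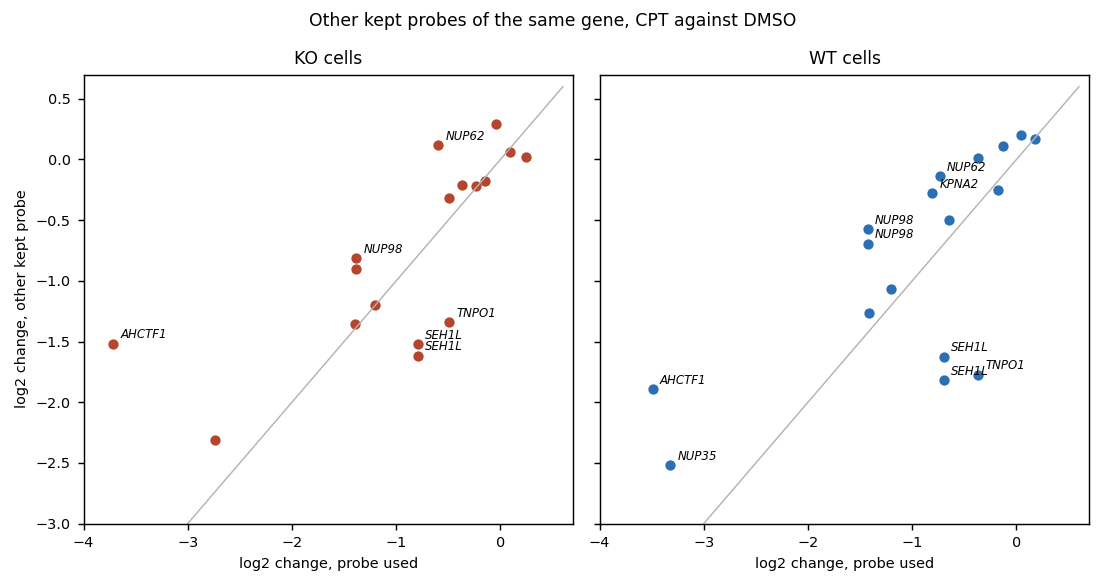
Log2 change with CPT of the 17 other kept probes of 14 members (vertical axis) against the probe used for that gene (horizontal axis), in KO cells and WT cells. The line marks equal change, and named points differ by over 0.5. In each genotype 15 of the 17 other probes had the same sign as the probe used.

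No member was called between the genotypes in the fit without the block. Under CPT, 0 of 51 members were called in KO against WT cells, where 0.726% of all genes were. At an unadjusted p under 0.05 there were 4 members, where 10.4% of all genes passed. These 4 were lower in KO cells: TNPO3 (-0.61), KPNA6 (-0.52), KPNA3 (-0.46) and IPO7 (-0.43). Under DMSO 0 members were called, where 1.01% of all genes were, and 2 passed the unadjusted limit, where 9.82% of all genes did. They were NDC1 and RAE1, both lower in KO cells (-0.60 and -0.34). The CPT response in KO cells minus that in WT cells, tested with the replicate number as a block, was called for 0 members, where 0% of all genes were called, and without the block for 0. At an unadjusted p under 0.05 it gave 2 members, where 4.93% of all genes passed. KPNA2 had a difference of 0.58 ± 0.20 (SE, unadjusted p = 0.0159, adjusted p = 0.916) and XPO5 one of -0.48 ± 0.20 (0.0309 and 0.934). Over the 51 members these differences ran from -0.50 for IPO5 to 0.58 for NUP35. For 5 exportins other than XPO5 they lay between -0.03 and 0.02, with standard errors of 0.19 to 0.26, so differences below about 2 standard errors could not be told from 0.

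KPNA6, an importin alpha, came nearest to a genotype call. Under CPT it had 149, 157 and 177 in KO cells, against 219.8, 235 and 235 in WT cells, and the groups did not overlap. The change of -0.52 ± 0.14 had an adjusted p of 0.143. With the replicate block, under which 4.20% of all genes were called, KPNA6 was called at 0.0321, the only member. Over its alternatives the adjusted p ran from 0.0321 to 1.00.

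Long genes were more often lower with CPT over the whole array, and these members are longer than most. From RefSeq annotation, a gene's span from its first to its last annotated base had a median of 63.5 kb for the 51 members, against 26.6 kb for 10408 other genes with a span. Receptors had a median span of 68.5 kb and pore parts of 58.8 kb. Across the 51 members, which share the 12 arrays, Spearman's correlation of span with change was -0.44 in KO cells and -0.37 in WT cells. Across the other genes it was -0.44 and -0.44. Genes are not independent replicates, so these are descriptions.

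Within classes of span, larger shares of members than of other genes were called lower in the middle classes, a difference that was not tested. Of the 15 members of 80 to 160 kb, 13 were called lower in KO cells and 13 in WT cells, where 40.6% and 40.4% of the other genes were. Of the 18 members of 40 to 80 kb, 11 were called lower in KO cells and 9 in WT cells, where the other genes had 24.0% and 26.2%. Of the 12 of 20 to 40 kb, 5 were called in each genotype, where the other genes had 13.7% and 15.96%. Of the 4 members under 20 kb, RAN among them, 0 were called lower in KO cells and 1, KPNA2, in WT cells. The other genes of that class had 5.89% and 5.98%. Of the 2 members over 160 kb, 1, IPO11, was called lower in each genotype, where the other genes had 41.4% and 38.5%. The other was RANBP2, with an annotated span of 1123 kb, against 216 kb for IPO11. That span was not checked against another source. Span did not order members closely. NUP35, at 44.2 kb, and XPO5, at 53.7 kb, were among the largest falls, while NUP210, at 104 kb, had the most positive change.

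**Figure D4:**
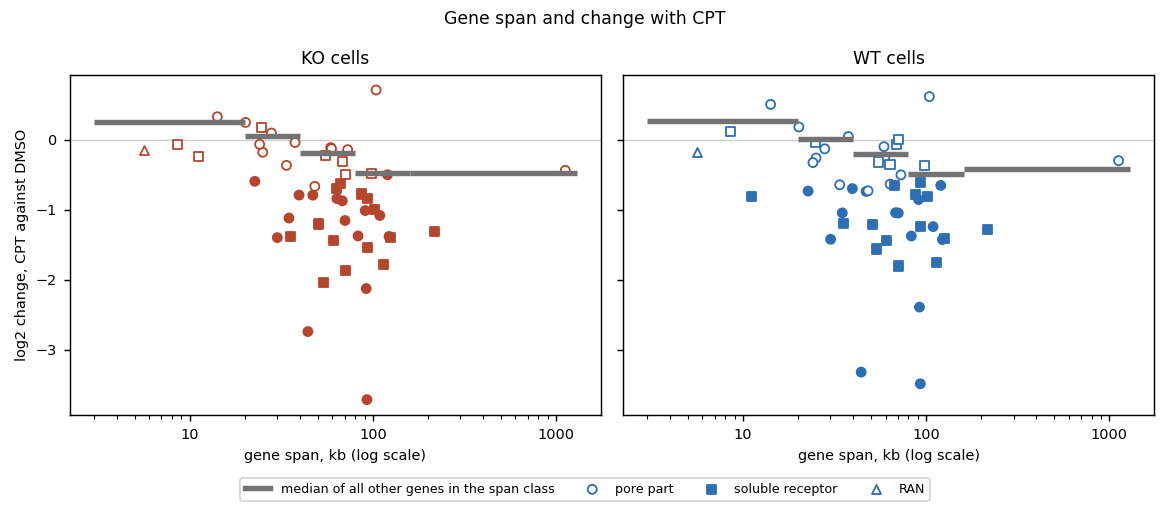
Log2 change with CPT against gene span in kb (log scale) for the 51 members, in KO cells and WT cells, with circles for pore parts, squares for receptors and a triangle for RAN, filled where called. Grey bars give the median of all other genes in each span class. The filled point nearest 0 is NUP93 in KO cells, at -0.50, and the lowest bar is at -0.49. Filled points therefore lie below the bars because of how they were chosen.

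Promoter sequence was read for 45 of the 51 members from RefSeq (GRCh38.p14), as the 250 bases before the annotated start, and both strands were searched for short motifs. The core of the ETS factor site, CCGGAAG, was in 13 of 45 member promoters, or 28.9%, where 16.7% of 8459 tested genes and 8.82% of 27305 promoters held it. It was in 7 of the 24 members lower in both genotypes and in 6 of the other 21. CCAAT was in 19 member promoters, where 35.8% of tested genes held it. The GC box, GGGCGG, was in 24, or 53.3%, where 68.5% of tested genes held it. The site TGACGTCA, which the ATF and CREB factors can bind, was in 2 member promoters, those of NUP133 and NUP214, where 3.11% of tested genes held it, and the AP-1 site TGANTCA in 2, those of NUP37 and IPO4, where 3.78% did. The NRF1 letters GCATGCG were in 5 of 45, the E2F letters TTCCCGC in 5 and TATAAA in 2, where 5.9%, 9.17% and 5.04% of tested genes held them. No motif contains another, and a match is only a match of letters.

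NUP133 and NUP214 were chosen for display after their values were seen, because their promoters hold the only TGACGTCA sites among members in a study of ATF3. NUP133, a coat subunit, had 181, 177 and 120.4 under CPT, against 324, 279 and 262 under DMSO in KO cells and 138, 140.1 and 116 under CPT, against 325, 285 and 212 under DMSO in WT cells, changes of -0.87 ± 0.21 and -1.04 ± 0.21. NUP214 had 46.4, 45.4 and 24.9 under CPT, against 84.4, 75.9 and 77.9 under DMSO in KO cells and 40.6, 30.7 and 34 under CPT, against 91.9, 70.5 and 86.5 under DMSO in WT cells. Neither was called between KO and WT cells under CPT or DMSO. NUP35 is displayed as the member with the largest fall among those with an ETS core. It does not represent the large falls in this respect. The promoters of NUP153, XPO5, XPO6, KPNA3, XPO1, XPO4, NUP85 and NUP98, which also fell far, held no ETS core. Those of AHCTF1 and KPNA4 were not read. RAN stands for a member that was not called, with GC boxes. Capitals mark TGACGTCA in NUP133, TGACGTCA and the ETS core in NUP214, the ETS core in NUP35 and GC boxes in RAN, on either strand.
NUP133 (chr1:229508342-229508591, - strand): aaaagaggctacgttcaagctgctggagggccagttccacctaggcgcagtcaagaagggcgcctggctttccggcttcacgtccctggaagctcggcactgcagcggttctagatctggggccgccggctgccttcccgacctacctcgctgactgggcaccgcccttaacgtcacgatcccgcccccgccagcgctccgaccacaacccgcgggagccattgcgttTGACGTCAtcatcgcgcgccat
NUP214 (chr9:131125336-131125585, + strand): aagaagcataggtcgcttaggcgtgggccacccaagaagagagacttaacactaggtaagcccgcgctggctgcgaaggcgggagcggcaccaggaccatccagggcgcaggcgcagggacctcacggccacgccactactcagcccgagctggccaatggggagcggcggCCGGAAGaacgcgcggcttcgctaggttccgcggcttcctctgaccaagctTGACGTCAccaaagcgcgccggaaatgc
NUP35 (chr2:183124193-183124442, + strand): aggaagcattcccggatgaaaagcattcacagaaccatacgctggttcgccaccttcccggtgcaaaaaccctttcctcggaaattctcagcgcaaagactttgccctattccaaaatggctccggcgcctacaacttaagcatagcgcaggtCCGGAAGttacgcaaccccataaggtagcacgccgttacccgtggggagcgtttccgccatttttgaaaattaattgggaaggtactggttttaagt
RAN (chr12:130871816-130872065, + strand): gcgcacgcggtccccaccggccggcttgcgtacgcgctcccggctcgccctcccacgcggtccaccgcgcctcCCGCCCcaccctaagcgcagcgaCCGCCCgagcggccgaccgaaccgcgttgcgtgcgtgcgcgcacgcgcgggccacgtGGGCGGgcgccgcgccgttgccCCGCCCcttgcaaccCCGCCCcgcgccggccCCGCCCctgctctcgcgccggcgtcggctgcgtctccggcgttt

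Neighbouring parts of the transport machinery were read from lists chosen with earlier results known. Their counts stand against the 17.9% of all genes called lower in KO cells and 18.5% in WT cells. Of 5 kept genes of the RAN cycle, 2 were called lower in both genotypes and 0 higher. RCC1, which loads RAN with GTP, changed by -1.08 in KO cells and -1.21 in WT cells, and RANGAP1, which triggers GTP hydrolysis, by -1.20 and -1.19. RANBP1, which aids that hydrolysis, was at 0.22 in KO cells and 0.36 in WT cells, and NUTF2, the importer of RAN, at 0.21 and 0.46, none of them called, although with the block NUTF2 was called higher in WT cells (adjusted p = 0.0258) and RANBP3 lower there (0.00577, a change of -0.72). Of 18 kept mRNA export genes, 4 were called lower in KO cells, a share near that of all genes, 6 in WT cells, and 0 higher. The block added higher calls for NXT1 in KO cells (adjusted p = 0.0184) and THOC2 in WT cells (0.00758). It also added lower calls for DDX19A, PCID2 and SARNP in KO cells and THOC5 in WT cells. THOC1 of the THO complex changed by -0.78 in KO cells and -0.81 in WT cells, and MCM3AP, a basket-bound export scaffold, by -0.70 and -0.89. Of 6 other kept pore and receptor genes, the snRNP import adaptor SNUPN changed by -1.34 in KO cells and -1.23 in WT cells, and POM121C by -0.74 in KO cells, where it was called, and by -0.52 in WT cells, where it was called with the block alone (adjusted p = 0.00829). IPO13, an importin of the beta family, was called higher, at 0.74 in KO cells and 0.89 in WT cells. The block added higher calls for NUP42 in KO cells (adjusted p = 0.0257) and RANBP6 in WT cells (0.0181), and the lower calls of XPOT given above. Of 14 kept lamina and envelope genes, 3 were called lower in both genotypes, a share near that of all genes, and 0 higher. They were the lamin gene LMNB1, at -1.998 in KO cells and -1.58 in WT cells, TMPO, at -1.27 and -0.71, and LEMD3, at -1.19 and -1.50. The block added higher calls for LEMD2 and EMD in both genotypes. It added lower calls for LBR and SUN1 in both, LMNA in KO cells and SYNE2 in WT cells. Between KO and WT cells under CPT, the block called 4.20% of all genes. Of these lists it called RANBP6 (-0.92, adjusted p = 0.0152), DDX19B (-0.57, 0.0403) and SYNE2 (0.67, 0.0113).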

How the data were processed

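RNA of 12 HCT116 samples, 3 in each of 4 groups, was hybridised to Illumina HumanHT-12 v4 arrays. The authors exported intensity values from GenomeStudio (version not given in the sources used here), deposited as unscaled bead signals of 47300 probes with a detection p-value for each against negative control beads. They also deposited background-subtracted, quantile-normalized intensity values. Those values appear to have been normalized separately for replicate 1 and for replicates 2 and 3, an inference from their 75th percentiles of 55.4 and 31.5. On each array 13713 to 16823 probes were detected at p under 0.01, and arrays of a group correlated at 0.938 to 0.986. The number of arrays limits the precision.

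From the unscaled signals, limma 3.58.1 in R 4.3.3 corrected the background (nec, offset 16, noise from the detection p-values) and quantile-normalized all 12 arrays, and log2 values were taken. Probes naming 1 gene (30098 of 47300) were kept if detected on at least 3 arrays, and the probe with the highest mean stood for its gene. Symbols came through the gene identifier from RefSeq, with 30059 probe genes matched and 39 not. The array files name no genome build. Groups were compared in 1 fit (lmFit, eBayes, 8 residual degrees of freedom, two-sided, Benjamini-Hochberg over 10464 genes). Since the study names a paired test of fold changes, the difference of responses was fitted with replicate number as a block, leaving 6 residual degrees. The numbers were checked as pairs: deviations from group means correlated at 0.25 to 0.69 in 18 same-number pairs of arrays and at -0.59 to 0.03 otherwise, and 12 of 12 arrays had their best partner under their own number. The other comparisons left this pairing out of the main fit, and their counts with the block are given beside them.

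For a gene detected on no array of a group, a fall is a bound against the lowest detected signal. Values on every array were given for the 10 members with the largest called change in each genotype, members called higher or between genotypes with or without the block, and the smallest change in each subgroup of 4 or more. The members and lists were chosen with earlier results of these data known. The fit was run on simulated data with independent noise on each array and no replicate effect. That run cannot show how the fit handles deviations shared by replicate number. Alternatives were other scalings, background corrections, detection filters and probe rules, the authors' values, the block, fewer arrays and each array left out. Figures were drawn with matplotlib 3.10.9.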

Additional observations from a re-analysis of the deposited data

How the results depend on the processing

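Every called member kept its negative change under each alternative that kept it, 30 in KO cells and 29 in WT cells. Calls held under all alternatives that kept the gene for 17 members in KO cells and 17 in WT cells. Detection on all 12 arrays kept 44 members, so calls of members dropped there were not tried under it. The authors' values without the block gave 17 calls in KO cells and 17 in WT cells, and with it 32 and 32. Among all genes they gave 1323 and 1337 calls without the block, and 4660 and 4724 with it. The replicate block changed no other call of the genotype comparisons than that of KPNA6, and gave 36 calls in KO cells and 34 in WT cells for CPT against DMSO. All genes then had 5081 and 5160 calls. With only the 6 arrays compared and no block, 29 members were called lower in KO cells and 1, NUP210, higher. In WT cells that setting called 23 members lower and 0 higher. All genes had 3751 calls in KO cells and 2215 in WT cells under it. Between KO and WT cells under CPT, 1 member, KPNA6, was called with no detection filter, with the block, and with the authors' values and the block. The causes were not tested.

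With 1 array left out, calls ran from 23 to 30 in KO cells and from 21 to 30 in WT cells, and stayed at 0 in each genotype comparison. The 23 came without KO CPT replicate 3 and the 21 without WT CPT replicate 2, where all genes had 2528 and 2336 calls. Calls lost without some single array were those of SEH1L, NUP93, NUP62, IPO8 and XPO7 in both genotypes, TPR and IPO7 in KO cells, and KPNA1, KPNA2 and TNPO3 in WT cells. Those left-out fits gave median changes of -0.74 to -0.58 (KO cells) and -0.82 to -0.54 (WT cells) for pore parts, and of -0.9998 to -0.82 (KO cells) and -1.06 to -0.67 (WT cells) for receptors.

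Median scaling over all probes gave medians for pore parts of -0.94 in KO cells and -1.10 in WT cells, and for receptors of -1.22 and -1.33. No background correction gave -0.43 and -0.53 for pore parts and -0.57 and -0.53 for receptors. Median scaling over the kept probes, an alternative chosen after seeing the data, gave -0.52 and -0.53 for pore parts. In KO cells pore parts had -0.77 with the authors' values and -0.50 with detection on all 12 arrays.

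The changes that turned sign were all of members not called with quantile-normalized values. With median scaling over all probes these were, in KO cells, RAE1 at -0.14, TNPO2 at -0.025 and RAN at 0.054, and in WT cells SEC13 at -0.17, GLE1 at -0.32, IPO4 at -0.39 and IPO5 at -0.54. With median scaling over the kept probes they were, in KO cells, NUP107 at 0.0033, GLE1 at 0.15 and RAN at 0.48, and in WT cells NUP107 at 0.048, RANBP2 at 0.20, RAE1 at 0.067, TNPO2 at 0.17 and RAN at 0.56. With replicates 2 and 3 alone they were NUP107 at 0.051, NUP188 at 0.053 and NDC1 at 0.084 in KO cells and IPO4 at -0.076 in WT cells. With the mean of a gene's probes GLE1 was at 0.12 in KO cells. With 1 array left out, the ranges of those that turned were, in KO cells, NUP107 -0.38 to 0.10, NUP43 -0.33 to 0.00061, NUP188 -0.23 to 0.010, GLE1 -0.096 to 0.013, NUP50 -0.32 to 0.14, IPO4 -0.20 to 0.13, and in WT cells NUP107 -0.31 to 0.052, SEC13 -0.018 to 0.38, GLE1 -0.0078 to 0.12, IPO4 -0.27 to 0.49, IPO5 -0.14 to 0.11, IPO9 -0.62 to 0.072, TNPO1 -0.97 to 0.10, TNPO2 -0.12 to 0.062.

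Dim probes limit AHCTF1, NUP98, NUP214, NUP58, IPO8 and RANBP2, whose CPT values lie near background.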
